A study of Mus musculus with 14 samples.

Results

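The measurements concern how far mice fed the same diet differed from each other in liver gene expression. All 14 arrays of the series were used, 1 liver per array, from male C57BL/6 mice aged 1 year. The standard diet (AIN-93G) was given to 5 mice, a high-calorie version with 60% of its calories from fat to 5 mice, and that high-calorie diet plus 0.04% resveratrol, a plant polyphenol, to 4 mice. On every array the animal's RNA carried the Cy3 dye and a reference pool of 5 standard-diet livers carried Cy5, so a level is the log2 ratio of animal to pool. For each probe well above background in Cy3 on all 14 arrays, the standard deviation (SD) of this ratio was taken within each diet. That left 29160 of 41174 probes, and 13187 named genes with 1 probe each, the brightest. No diet mean was compared with another. The labels do not say whether the mice of a diet shared a cage or a litter, and each liver is a mixture of cells, so fewer cells of a type and less RNA per cell cannot be told apart.

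Mice of one inbred strain share nearly all of their genome, and liver transcripts are known to follow several states that can differ between such animals. Acute phase proteins are made by hepatocytes under cytokines such as interleukin-6. Growth hormone reaches the male mouse liver in pulses and drives transcription through STAT5. Insulin, feeding and sterol levels act through the SREBP factors, and unfolded proteins in the endoplasmic reticulum (ER) act through ATF6, XBP1 and PERK.

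Sequences are shown for the genes that moved together and share a known regulatory motif. The ER stress response element, with the letters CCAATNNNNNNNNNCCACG, was searched on both strands in RefSeq promoters of GRCm38.p6, each 250 bases before to 50 bases after the start site. It stood in 4 of the 9 promoters of the group of genes led by Igfbp1 described below, and in 35 of all 27025 promoters (0.13%). The 4 stretches below are read 5′ to 3′ on the gene's strand, with the motif in capitals. A match describes the letters only and shows neither binding nor a cause.
Creld2, chr15:88819496-88819645, plus strand: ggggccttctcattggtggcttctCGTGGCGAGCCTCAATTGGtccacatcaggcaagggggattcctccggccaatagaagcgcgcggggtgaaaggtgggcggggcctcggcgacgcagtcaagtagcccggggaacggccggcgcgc
Syvn1, chr19:6046426-6046575, plus strand: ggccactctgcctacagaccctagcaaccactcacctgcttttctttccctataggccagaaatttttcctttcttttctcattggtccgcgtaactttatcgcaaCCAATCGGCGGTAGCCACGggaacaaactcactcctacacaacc
Derl3, chr10:75893218-75893367, plus strand: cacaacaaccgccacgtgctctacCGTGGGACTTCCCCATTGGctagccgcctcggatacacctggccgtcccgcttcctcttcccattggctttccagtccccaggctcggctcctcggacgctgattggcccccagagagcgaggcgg
Hspa5, chr2:34771940-34772089, plus strand: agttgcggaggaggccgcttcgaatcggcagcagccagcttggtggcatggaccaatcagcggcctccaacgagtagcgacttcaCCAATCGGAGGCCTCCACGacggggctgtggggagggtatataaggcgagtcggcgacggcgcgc

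Cish is shown because its level spread widely in all 3 diets. It encodes a feedback inhibitor of the growth hormone receptor and is a textbook STAT5 target. The STAT5 motif TTCNNNGAA, in capitals, stood 2 times at the RefSeq start site, and 2288 of 27025 promoters (8.47%) held it at least 1 time.
Cish, chr9:107296579-107296678, plus strand: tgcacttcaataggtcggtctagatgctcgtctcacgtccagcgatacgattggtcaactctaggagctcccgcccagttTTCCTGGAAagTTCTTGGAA

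Most genes hardly differed between mice of a diet. The median SD over 29160 probes was 0.0895 in standard-diet, 0.0689 in high-calorie and 0.0873 in resveratrol mice, on the log2 ratio scale. Leaving out the mice of each diet in turn gave jackknife errors of 0.00945, 0.00521 and 0.0082. With the Cy3 channel alone the high-calorie mice had the largest of the 3 medians (0.176), so the order of the diets is not a stable property of these arrays. An SD above 0.5 was found for 398, 81 and 313 probes in that order, and an SD above 1 for 9, 8 and 45. The 31 probes spotted several times and kept had a median SD of 0.0488 between spots on one array. This is a scale of the array's own noise under the same offset, for these probes.

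**Figure D1:**
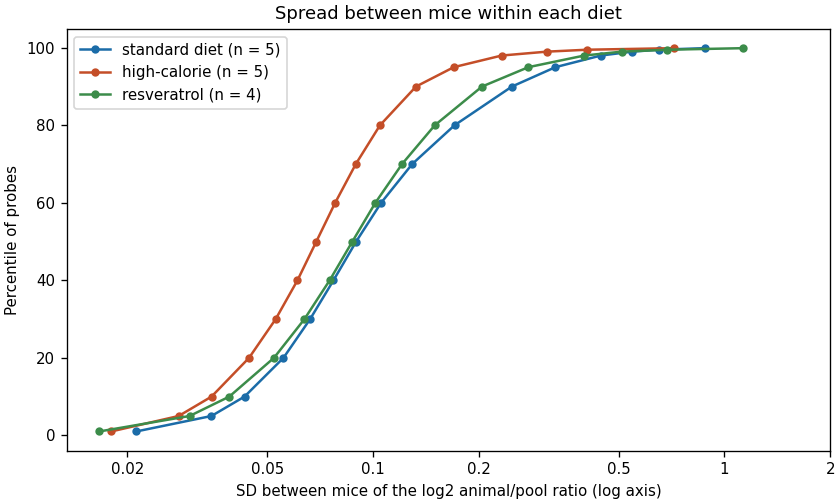
Percentile of probes (y axis) against the SD between mice of the log2 animal/pool ratio (x axis, log scale), 1 curve per diet, over 29160 probes. The curves cross the 50th percentile at 0.0689 (high-calorie), 0.0873 (resveratrol) and 0.0895 (standard diet).

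A few mice and a few regions of slides held much of the spread. Standard-diet mouse 2 accounted for 18.3% of the sum of squared deviations from the diet means, resveratrol mouse 3 for 15.2% and standard-diet mouse 5 for 10.5%, and each other mouse for less than 8%. Mice 2 and 5 were also the only standard-diet mice whose array images were processed on the second day. Their median absolute deviations were 0.077 and 0.075, against 0.053, 0.051 and 0.053 in standard-diet mice 1, 3 and 4. Mouse and day cannot be told apart there, and all resveratrol arrays were processed on the first day. The slide barcodes, cut at their largest gap, form 2 series. Resveratrol mouse 2 was on another series than resveratrol mice 1, 3 and 4, and all standard-diet mice were on 1 series. On 2 slides, neighbouring spots deviated together whatever gene they measured. For 328 probes of standard-diet mouse 1 and 170 of high-calorie mouse 4 the spots around the probe deviated by more than 0.5, and for no probe of the other 12 mice. Of the 200 genes with the largest SD in high-calorie mice 39 had such neighbours on an array of that diet, and 19 of 200 in standard-diet mice. No resveratrol array had such a probe.

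**Figure D2:**
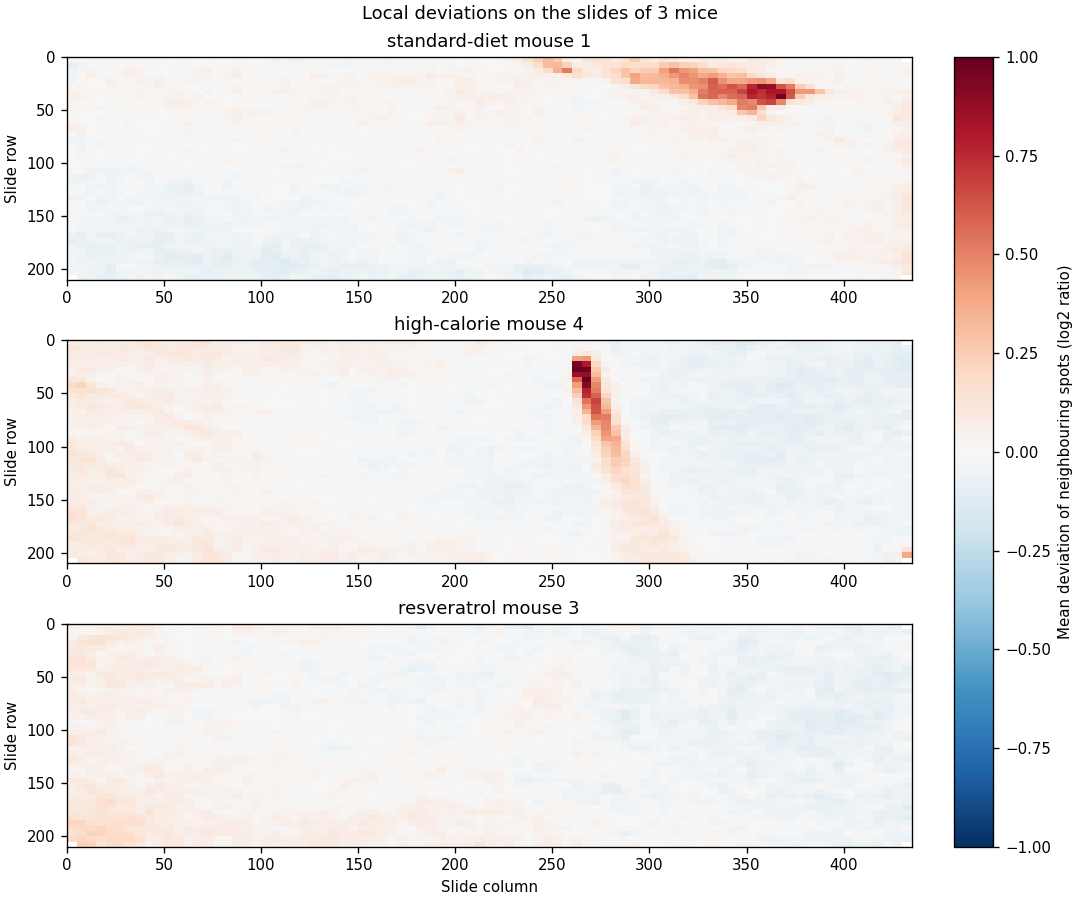
Mean deviation of neighbouring spots (colour, log2 ratio) by row and column of the slide, in blocks of 5 by 5 positions, for 3 mice. Standard-diet mouse 1 and high-calorie mouse 4 show streaks of raised ratios, and resveratrol mouse 3, whose genes deviated most among resveratrol mice, shows none.

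The 12 genes with the largest SD were mostly not the same in the 3 diets, but SDs of 4 or 5 mice rank genes imprecisely. In standard-diet mice they were Igfbp1, Cish, Lrp6, Ramp2, Id1, Malat1, Hbb-bt, Syvn1, Pnpla3, Dkk1, Oaz1 and Calcr, with SDs from 1.22 down to 0.92. Of these, Hbb-bt had neighbouring spots that deviated by 0.61 in mouse 1, which was neither its highest nor its lowest mouse. In high-calorie mice they were Itpr2, Olig2, 6430571L13Rik, Hmga2, Cdx4, Hbb-bt, Cish, Med22, Utp14b, Hba-a1, Ssbp4 and Bcl6, from 1.69 to 0.71. Of these, Itpr2, Olig2, 6430571L13Rik, Cdx4 and Med22 lay in the streak of mouse 4. In resveratrol mice they were Saa3, Saa1, Mt2, Saa2, Orm2, Mt1, Lcn2, Orm1, S100a9, Cidea, Lrg1 and Cyp4a14, from 3.83 to 1.70. Saa1 and Saa2 were saturated in the pool channel on all 14 arrays and in both channels in resveratrol mouse 3, so their ratios are distorted in every mouse, are not measured in that mouse, and do not fix their place in this order. Of the 200 most variable genes of each diet, 44 were shared by standard-diet and high-calorie mice, 43 by standard-diet and resveratrol mice and 41 by high-calorie and resveratrol mice. Lists of 200 drawn at random from 13187 genes would share far fewer. The SD also depends on how bright a probe is on all arrays, so a random draw is no fair comparison. Whether the diets differ in which genes vary most was not tested. All these lists were ranked by the SD itself and are descriptions.

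The 200 genes with the largest SD pooled over the diets were grouped by the correlation of their deviations from the diet means over 14 mice, at a limit of 0.6. In all, 171 of them fell into 12 groups of 5 or more genes, named here by the gene with the largest SD. Resveratrol mouse 3 deviated most for 86 of the 200 genes, 58 times upward and 28 times downward, and standard-diet mouse 2 for 42 genes. Over all 13187 genes, resveratrol mouse 3 deviated most for 1910 and standard-diet mouse 2 for 3094. The share of standard-diet mouse 2 was thus no larger among the 200 genes than over all genes. The genes of a group were chosen for moving together, so the agreement within a group is no separate result.

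**Figure D3:**
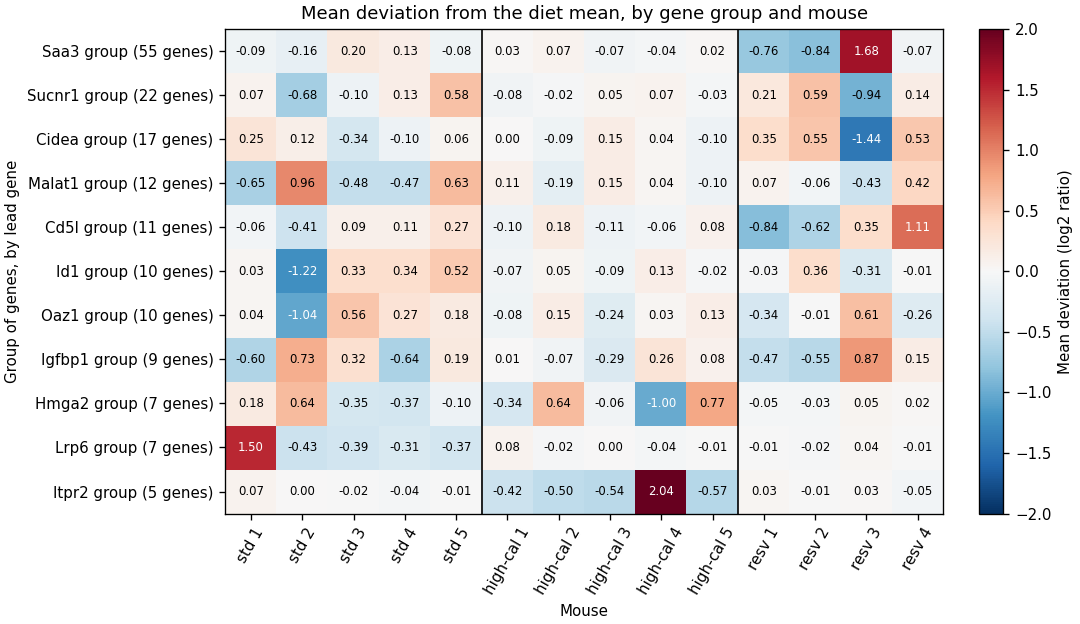
Mean deviation from the diet mean (colour and printed number, log2 ratio) of 11 of the 12 groups of genes (rows) in each of 14 mice (columns; std, standard diet; high-cal, high-calorie; resv, resveratrol). The Saa3 group stands at 1.68 in resveratrol mouse 3, the Id1 group at -1.22 in standard-diet mouse 2 and the Itpr2 group at 2.04 in high-calorie mouse 4.

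In resveratrol mice acute phase genes had the largest median SD of any list apart from the metallothioneins, and 1 mouse stood far above the others. The largest group held 55 genes, among them the serum amyloid genes Saa1, Saa2, Saa3 and Saa4, the orosomucoids Orm1 and Orm2, the iron scavenger Lcn2, haptoglobin (Hp), fibrinogen chains and the transcription factors Cebpb and Cebpd. Saa3, a serum amyloid of inflamed tissue and macrophages, had log2 ratios of -4.96, -5.32, 2.98 and -2.54 in resveratrol mice 1 to 4. It ranged from -5.46 to -4.92 in standard-diet mice and from -4.68 to -4.30 in high-calorie mice. Mouse 3 therefore stood 8.30 log2 units, or 316-fold, above the lowest mouse of its diet, and mouse 4 lay between, above every standard-diet and high-calorie mouse. Orm2, an acute phase plasma protein that binds drugs, gave -2.35, -2.64, 2.52 and -1.40 in the resveratrol mice, and the high-calorie mice kept within -2.35 to -2.06. S100a9, a subunit of the neutrophil protein calprotectin, gave -2.37, -2.12, 1.53 and -1.10. For these genes mice 1 and 2 were low, mouse 4 was higher and mouse 3 stood far above all others.

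Metallothioneins bind zinc and copper and respond to glucocorticoids, metals and interleukin-6. Mt2 was nearly the same in all standard-diet mice, from -3.92 to -3.80 (SD 0.05, n = 5), and in high-calorie mice, from -3.59 to -3.31 (SD 0.11, n = 5). In resveratrol mice it was -4.03, -3.64, 2.22 and -2.75 (SD 2.89, n = 4). The same gene was thus nearly constant in standard-diet mice and among the most variable in resveratrol mice. Mt1 and Mt2 deviated together over the 14 mice (Pearson r = 0.996, permutation p = 0.0008, adjusted p = 0.00667, Spearman rho = 0.855, adjusted p = 0.0301, r = 0.753 without resveratrol mice 3 and 1). The permutations were two-sided and kept each diet's mice together, and p was adjusted over the 25 gene pairs tested.

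Of the 23 acute phase genes measured, 16 had no saturated spot, and all 16 had their highest level of the 14 mice in resveratrol mouse 3. The other 7, among them Saa1, Saa2 and Hp, were saturated in the pool channel on 8 or more arrays. The median SD of the 16 was 1.03 in resveratrol mice, 0.193 in standard-diet and 0.127 in high-calorie mice, where all 13187 genes had 0.09, 0.09 and 0.07. Their mean deviation in resveratrol mice 1 to 4 was -0.82, -0.87, 1.82 and -0.13. Of 8 neutrophil genes 4 were measured, among them S100a9 of the group above, with an SD of 1.78 in resveratrol mice. The median SD of the 4 was 0.31 there, and 2 of the 4 were above the 90th percentile of pooled SD. The 4 genes had mean deviations of -0.42, -0.38, 0.89 and -0.10 in resveratrol mice 1 to 4, in which S100a9 weighs heavily. Their part in the result was not tested.

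For 12 of the 16 unsaturated acute phase genes all 5 standard-diet mice lay below the pool, although the pool was made of standard-diet livers. The same held for 3221 of all 13187 genes (24.4%), and without a dye swap a difference between the dyes cannot be told apart from one between the RNAs. In the normalised Cy3 channel Saa3 lay between 7.97 and 8.57 log2 intensity units in standard-diet mice, and in the Cy5 channel the pool lay between 13.3 and 13.8 on the 14 arrays. The labels do not say which livers went into the pool. This level is shared by all arrays and does not enter the SDs.

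A further 2 groups were low in resveratrol mouse 3, those led by Cidea (17 genes, mean deviation -1.44) and Sucnr1 (22 genes, -0.94). Cidea, a lipid droplet protein of fatty liver, had log2 ratios of -0.70, -0.09, -3.64 and 0.09 in resveratrol mice 1 to 4. In high-calorie mice it ranged from 0.52 to 1.41. In standard-diet mice it was -3.13, -1.98, -3.55, -3.40 and -3.40. Resveratrol mouse 3 was thus the lowest of all 14 mice and the other 3 resveratrol mice lay between the diets.

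Cyp4a14, a fatty acid hydroxylase induced by PPAR-alpha, gave 0.11, 0.74, -2.77 and 0.87 in the resveratrol mice, again with mouse 3 apart. Car3, a carbonic anhydrase abundant in male liver, gave 1.08, 0.72, -2.28 and 0.71. Sucnr1, the succinate receptor, gave 0.96, 0.63, -1.92 and -0.20. Scd1, the desaturase that makes monounsaturated fatty acids, gave 1.65, 2.26, -0.01 and 1.59. Of 27 listed PPAR-alpha targets 26 were measured, and their mean deviation was 0.06, 0.18, -0.46 and 0.22 in resveratrol mice 1 to 4. The genes most unlike Saa3 over the 14 mice, chosen after their values were seen, were the carboxylesterases Ces1f (r = -0.96) and Ces1e (r = -0.96) and Ppara (r = -0.93), the receptor gene itself. Saa3 had 66.8% of its squared deviations in mouse 3.

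Genes of Kupffer cells, the resident macrophages of the liver, divided the resveratrol mice in another way. Clec4f, a lectin found on Kupffer cells, had log2 ratios of -1.62, -1.37, 0.04 and 0.70 in resveratrol mice 1 to 4, a 5.01-fold range. It ranged from -1.58 to -1.01 in standard-diet and from -0.69 to -0.39 in high-calorie mice. Cd5l, a secreted macrophage protein, gave -1.99, -2.01, -0.20 and 0.11 in the resveratrol mice, against -2.29 to -1.45 and -1.11 to -0.70. Mice 3 and 4 thus lay above every standard-diet and high-calorie mouse for both genes, and mice 1 and 2 below every high-calorie mouse. C1qc, a chain of complement C1q made by macrophages, gave -1.01, -0.90, 0.18 and 0.98, and lysozyme Lyz2 gave -1.64, -1.14, -0.17 and 0.83, with the same 2 mice high. The probes of Lyz1 and Lyz2 may each detect both genes.

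Of 18 Kupffer cell and macrophage genes listed 17 were measured. Their median SD was 0.60 in resveratrol mice, 0.09 in standard-diet and 0.11 in high-calorie mice. The mean deviation of the list in resveratrol mice 1 to 4 was -0.51, -0.38, 0.25 and 0.64. The scavenger receptor Marco did not follow this order but that of the acute phase genes, with -1.58, -1.85, 0.48 and -1.15. T and NK cell genes did not share the spread, with a median SD of 0.09 in resveratrol mice over 10 genes.

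Differences of spread between diets were tested with limma on the size of each mouse's deviation from its diet mean, over 29160 probes with Benjamini-Hochberg adjustment. Resveratrol mice spread more than high-calorie mice for 41 probes (0.141% of those tested) and less for 0, and more than standard-diet mice for 28 probes (0.096%) and less for 0. At an unadjusted p under 0.05, 2981 probes were larger and 538 smaller against high-calorie mice, and 1905 larger and 1745 smaller against standard-diet mice. The 2 comparisons share the resveratrol mice. Both called the same 21 probes. Among them were Cd5l, Clec4f, the inhibitory receptor Pirb, the kinase Fgr of myeloid cells, Tlr2, a receptor for bacterial lipopeptides, and the chemokine Ccl6. Also called in both were Acox3, Nthl1, Stk10, Tubb6, Mydgf and Adgrl4, which are not on the Kupffer cell list. These 6 genes, Fgr and Tlr2 were chosen after their values were seen. Of the 17 Kupffer cell and macrophage genes measured, 2 were called in each comparison. For Cd5l the mean size of a deviation was larger by 0.98 ± 0.10 (SE) than in high-calorie mice (limma adjusted p = 0.00152), and for Clec4f by 0.96 ± 0.12 (adjusted p = 0.0064). Against high-calorie mice the Cd5l call held under 25 of 26 alternatives (limma adjusted p from 2.87e-05 to 0.135, the last with median centring) and the Clec4f call under 23 of 26. Against standard-diet mice these calls held under 22 and 19 of 26. These counts are partly fixed in advance, since several alternatives cannot change a difference. Leaving out a standard-diet mouse, for example, kept the Cd5l difference from high-calorie mice at 0.9755. Against high-calorie mice the Clec4f call failed with median centring, squared deviations and the replicate number as a block. Saa3, with a difference of 3.02 ± 0.80, did not pass (limma adjusted p = 0.185), and its deviations were of unequal size, 5.44 in mouse 3. Deviations within a diet sum to 0 and are not independent, so these p-values are too small, and with deviations from the diet median 6 and 5 probes were called. The counts rest on single mice: leaving out 1 mouse gave from 17 (without high-calorie mouse 1 or 2) to 344 calls (without resveratrol mouse 4) against high-calorie mice, and from 14 (without high-calorie mouse 5) to 278 (without resveratrol mouse 3) against standard-diet mice.

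**Figure D4:**
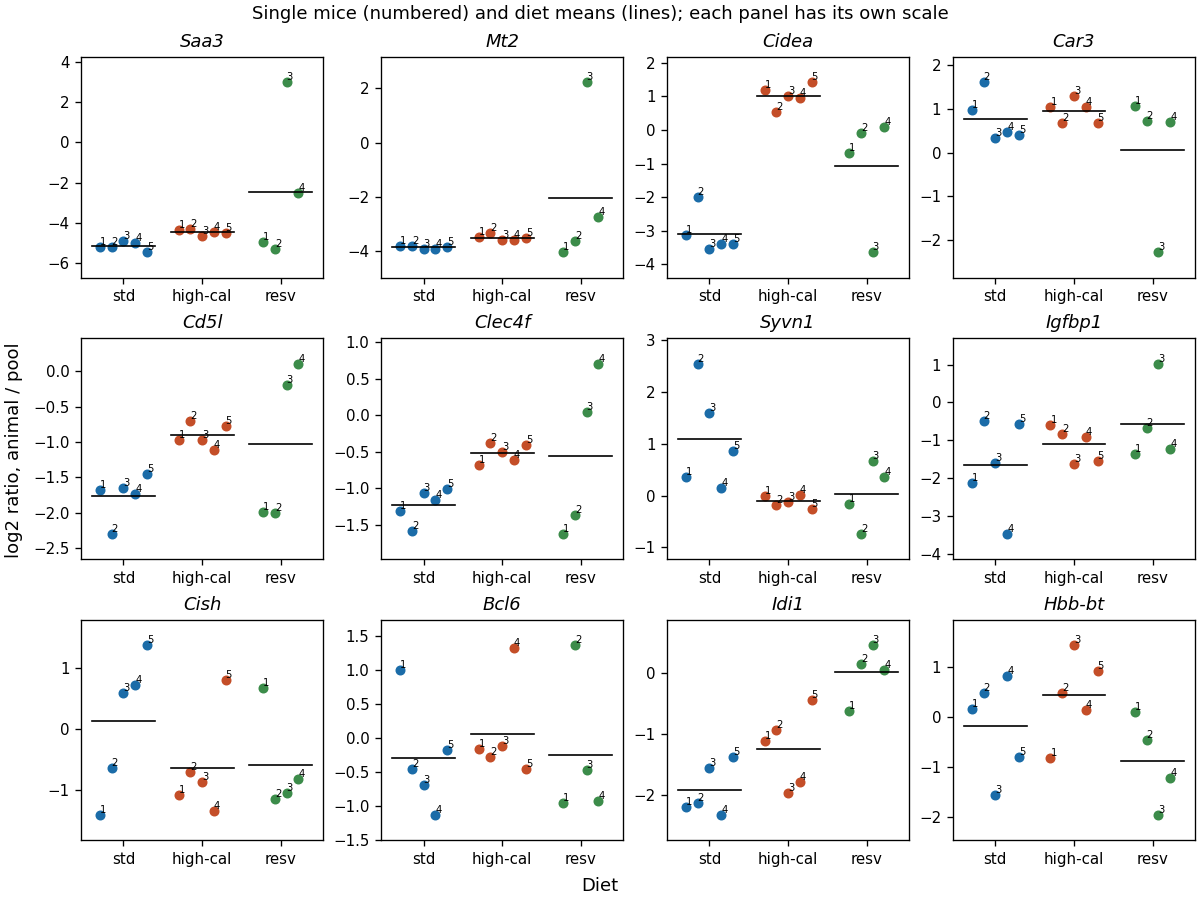
Log2 animal/pool ratio (y axis, own scale in each panel) of 12 genes in single mice (numbered points) by diet (x axis; std, standard diet; high-cal, high-calorie; resv, resveratrol), with diet means as lines. Saa3 and Mt2 are high and Cidea and Car3 low in resveratrol mouse 3, Cd5l and Clec4f are high in resveratrol mice 3 and 4, and Cish, Bcl6 and Hbb-bt spread in all 3 diets.

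Genes of the unfolded protein response varied in standard-diet and resveratrol mice but little in high-calorie mice. They include Syvn1 and Derl3, which help to degrade misfolded ER proteins, the chaperone Hspa5 (BiP) and its helpers Creld2 and Sdf2l1, whose promoters are shown above except that of Sdf2l1. Syvn1 had log2 ratios of 0.36, 2.54, 1.60, 0.14 and 0.86 in standard-diet mice 1 to 5, and stayed between -0.26 and 0.02 in high-calorie mice. Creld2 followed with -0.56, 1.20, 0.96, -0.66 and 0.17, and Derl3 with -0.22, 1.32, 1.10, -0.19 and 0.30. Hspa5 gave 0.14, 0.86, 1.29, 0.38 and 0.92. Mice 1 and 4 were the lowest in all 4 genes, and mice 2 and 3 the highest except for Hspa5, where mouse 5 stood above mouse 2.

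In resveratrol mice 1 to 4 Creld2 was -1.03, -1.76, 0.55 and -0.32, and Hspa5 was -0.19, -0.55, 0.75 and 0.53, so mouse 3 was again the highest. Derl3 hardly moved there, between -0.35 and -0.08. The 19 genes of the unfolded protein and integrated stress response list had median SDs of 0.39 in standard-diet, 0.14 in high-calorie and 0.28 in resveratrol mice. No difference of spread between diets passed for Syvn1, Creld2 or Hspa5 (limma adjusted p from 0.174 to 0.884).

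Igfbp1 led the same group and had the largest SD of any gene in standard-diet mice. It encodes an insulin-like growth factor binding protein that the liver makes in fasting and that insulin represses. Its log2 ratios were -2.11, -0.48, -1.59, -3.46 and -0.58 in standard-diet mice 1 to 5, a 7.87-fold range. In high-calorie mice it ranged from -1.62 to -0.58, and in resveratrol mice it was -1.36, -0.68, 1.02 and -1.22. Pck1, the gluconeogenic enzyme PEPCK, gave -2.39, -0.23, -1.85, -0.80 and -0.74 in the standard-diet mice. The correlation of Igfbp1 and Pck1 did not pass (r = 0.326, permutation p = 0.42, adjusted p = 0.489, rho = 0.284). Without standard-diet mouse 4 and resveratrol mouse 3 r was 0.741.

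The 16 lipogenic genes measured had median SDs of 0.46 in standard-diet, 0.14 in high-calorie and 0.29 in resveratrol mice. Pnpla3, a lipid droplet hydrolase induced by SREBP1c, had ratios of 0.18, 0.27, 0.69, -0.07 and 2.36 in standard-diet mice 1 to 5, so mouse 5 stood apart. Scd1 gave 2.58, 0.73, 2.22, 1.80 and 2.70, with mouse 2 lowest, and its SD of 0.79 was smaller than the 0.97 in resveratrol mice. Thrsp, a lipogenic regulator, gave 0.64, -0.53, 1.22, 0.23 and 1.58. Fasn, fatty acid synthase, gave 0.99, 0.58, 1.07, 0.52 and 1.72. Mouse 5 was the highest for all 4 genes, mouse 2 the lowest for Scd1 and Thrsp, and mouse 4 for Pnpla3 and Fasn. Fasn and Scd1 correlated with r = 0.67 over the 14 mice, which did not pass (permutation p = 0.037, adjusted p = 0.0774), while the rank correlation did (rho = 0.719, adjusted permutation p = 0.0465).

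High-calorie mice spread less than standard-diet mice for 9 probes (0.0309% of 29160) and more for 0 (limma), with 3324 smaller and 474 larger at an unadjusted p under 0.05. Among the 5 named genes was Insig1, which holds SREBP factors in the ER. It was chosen after its values were seen. Its ratios were between 0.29 and 1.47 in standard-diet mice and between 0.75 and 0.90 in high-calorie mice, a difference in mean deviation size of -0.47 ± 0.07 (SE; limma adjusted p = 0.0472). The call held under 11 of 26 alternatives, with adjusted p from 0.000274 to 0.996. The other 4 were Gramd1c and the histone genes H2bc12, H2bc14 and H2bu2, whose near-identical copies may share probes. With deviations from the diet median 0 probes passed, and leaving out 1 mouse gave from 0 (without high-calorie mouse 2, among others) to 236 calls (without standard-diet mouse 3).

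Sterol synthesis genes moved together over the 14 mice. Idi1, isopentenyl diphosphate isomerase, had ratios of -2.19, -2.13, -1.56, -2.32 and -1.38 in standard-diet mice, -1.12, -0.93, -1.96, -1.79 and -0.45 in high-calorie mice and -0.62, 0.15, 0.45 and 0.04 in resveratrol mice. Sqle, squalene epoxidase, gave -0.66, -0.27, -1.14, -1.30 and -0.14 in high-calorie mice, where mice 3 and 4 were low for both genes. Deviations of Sqle and Idi1 correlated with r = 0.949 (permutation p = 1e-05, the smallest that 100000 permutations can give, adjusted p = 0.000125) and rho = 0.917 (adjusted p = 0.0045). Hmgcs1, the synthase of the pathway's first committed steps, and Sqle gave r = 0.842 (adjusted permutation p = 0.000125) and rho = 0.851. Without the 2 mice farthest from the median r was 0.970 and 0.892. These were 2 of the 4 pairs called among 25, the others being Mt1 with Mt2 and Lcn2 with Orm2 (r = 0.985, adjusted permutation p = 0.0109), and without resveratrol mouse 3 only the 2 sterol pairs were called. The 22 genes of cholesterol synthesis measured had median SDs of 0.30, 0.16 and 0.24 in standard-diet, high-calorie and resveratrol mice.

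Cish and Bcl6 stood out because they spread in every diet. Bcl6 is a transcriptional repressor that growth hormone lowers through STAT5. Cish had ratios of -1.41, -0.64, 0.59, 0.72 and 1.38 in standard-diet mice, -1.08, -0.71, -0.87, -1.34 and 0.81 in high-calorie mice and 0.67, -1.15, -1.05 and -0.81 in resveratrol mice. Bcl6 gave 0.99, -0.46, -0.69, -1.14 and -0.18, then -0.17, -0.28, -0.12, 1.31 and -0.46, then -0.96, 1.36, -0.47 and -0.93. The deviations of Bcl6 and Cish correlated with r = -0.60 over the 14 mice, as a description. The mouse with the highest Bcl6 level of each diet, standard-diet mouse 1, high-calorie mouse 4 and resveratrol mouse 2, was the one with the lowest Cish level of that diet. The other end did not match in standard-diet mice, where mouse 5 had the highest Cish and the second highest Bcl6 level. Socs2, another STAT5 target chosen after its values were seen, ranged from -1.05 to 1.02, -1.22 to 0.19 and -1.19 to 0.19. Among genes above the 90th percentile of pooled SD, the liver transcription factor genes Foxa2 (r = 0.94) and Onecut1 (r = 0.93) deviated most like Cish over the 14 mice. Both were also chosen after their values were seen. Igf1, the growth hormone effector made by the liver, hardly varied, with an SD of 0.10 pooled over the diets.

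Haemoglobin RNA, which is made in red cell precursors, also spread in every diet. Hbb-bt had ratios of 0.16, 0.49, -1.56, 0.83 and -0.80 in standard-diet mice, -0.82, 0.49, 1.45, 0.15 and 0.93 in high-calorie mice and 0.11, -0.45, -1.97 and -1.22 in resveratrol mice. Its SDs were 0.98, 0.86 and 0.91. Hba-a1 gave 0.47, 0.31, -0.51, 1.46 and -0.24, then -0.16, 0.88, 1.91, 0.46 and 1.29, then -0.01, -0.32, -1.13 and -0.93, with mostly the same mice high and low. With the local surface of each slide subtracted the SDs of Hbb-bt were 0.95, 0.88 and 0.89. Globin probes may detect several globin genes. Other single genes with 1 or 2 high mice were Jchain, the joining chain of plasma cell antibodies, at 0.52 in high-calorie mouse 2 against -0.95 to -0.85 in the other 4, and Cfd, the adipocyte protease adipsin. Cfd gave 0.08, 1.05, 1.33, 0.20 and -0.26 in high-calorie mice, and the 8 adipocyte genes measured had mean deviations of -0.11, 0.14, 0.12, -0.02 and -0.13 in them, whose part in the result was not tested.

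Standard-diet mouse 2 set several groups apart. The groups led by Id1 (10 genes) and Oaz1 (10 genes) fell there by 1.22 and 1.04 on average. Id1, a BMP-responsive inhibitor of differentiation, had ratios of 2.05, 0.05, 2.29, 2.71 and 1.73 in standard-diet mice. Oaz1, the antizyme that lowers polyamines, gave 0.74, -1.03, 1.33, 1.26 and 0.73, with SDs of 0.96, 0.21 and 0.17 in the 3 diets. Mup4, a major urinary protein, was saturated in the pool channel on all 14 arrays and in both channels on 8, so its ratios are not given. This slide had the lowest share of probes well above background, 77.9% against 80.2% to 92.4% on the other 13, and that value's part in the result was not tested.

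The group led by Malat1, a nuclear non-coding RNA, divided standard-diet mice 2 and 5 from the others, and this division is also that of the day on which the array images were processed. Malat1 had ratios of -0.20, 1.77, 0.12, -0.55 and 1.39 in standard-diet mice, with mice 2 and 5 processed on the second day and mice 1, 3 and 4 on the first. Ramp2, a receptor-modifying protein, gave -1.26, 1.01, -0.62, -1.02 and 0.68 with its brightest probe, and its 3 probes disagreed, with pooled SDs from 0.13 to 0.66. In high-calorie mice, which were also processed on both days, the group's mean deviations were 0.11 and 0.04 on the first day (mice 1 and 4) and -0.19, 0.15 and -0.10 on the second (mice 2, 3 and 5). Processing day and slide series divided the high-calorie mice in the same way and cannot be told apart there. With the day as a block the pooled SD of Malat1 was 0.59 in place of 0.68, and that of Ramp2 0.52 in place of 0.66.

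For the groups led by Itpr2 and Hmga2, neighbouring spots or the pool channel moved with the result. Itpr2, a calcium channel of the ER, and Olig2, a neural transcription factor, were at 3.72 and 3.30 in high-calorie mouse 4 and at most 0.54 in any other mouse, and their neighbouring spots on that slide deviated by 1.76 and 1.48. Another probe of Itpr2 had a pooled SD of 0.05. Without high-calorie mouse 4 the pooled SDs fell from 1.02 to 0.08 and from 0.85 to 0.12. Lrp6, a Wnt co-receptor, Dkk1, its inhibitor, and Calcr, the calcitonin receptor, were at 2.37, 2.13 and 1.92 in standard-diet mouse 1 and at most 0.22 elsewhere, with neighbours at 0.48, 0.37 and 0.09. Subtracting the local surface lowered the median pooled SD of the Itpr2 group from 0.58 to 0.31 and that of the Lrp6 group only from 0.47 to 0.44. Hmga2 and Utp14b varied about as much in the pool channel as in the animal channel, with SDs of 0.36 and 0.34 for Hmga2. The group led by Hmga2 (7 genes) had a median SD of 0.35 in the animal channel and 0.31 in the pool channel, where all genes had 0.18 and 0.14.

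The pool is a single RNA preparation, so the spread of its Cy5 signal over the arrays holds no difference between mice. The animal was always in Cy3, so a larger spread there cannot be told apart from a difference between the dyes. Median net signal on the arrays was 30.1 to 93.9 in Cy3 and 91.7 to 172 in Cy5. The animal channel spread more than the pool channel for 306 of 29160 probes (1.05%; limma on the difference of the deviations, Benjamini-Hochberg adjustment) and less for 1 (0.00343%). Among the named genes called were Hbb-bt (SD 0.95 in the animal and 0.08 in the pool channel, adjusted p = 0.0177), Cish (0.91 and 0.13, adjusted p = 0.0297), Bcl6 (0.92 and 0.12, adjusted p = 0.0395), Igfbp1 (0.92 and 0.09, adjusted p = 0.036), Idi1 (0.54 and 0.16, adjusted p = 0.0375) and Hspa5 (0.40 and 0.06, adjusted p = 0.0377). Saa3 (1.92 and 0.14, adjusted p = 0.214) did not pass. Of the groups, 8 of 12 Malat1 genes and 5 of 9 Igfbp1 genes were called, against 159 of all 13187 genes. The members were ranked by the ratio of the same channels, so these counts describe them and support nothing. Single lists gave 5 of 22 cholesterol synthesis genes, 4 of 15 fasting genes and 4 of 19 unfolded protein response genes, and 0 of 23 acute phase genes. Within the first processing day 17 probes were called and within the second 0. Leaving out 1 mouse gave from 26 (without standard-diet mouse 5) to 545 calls (without resveratrol mouse 4).

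Cell cycle genes were among those with small SDs. The median SDs of 18 cell cycle genes were 0.10, 0.06 and 0.08 in standard-diet, high-calorie and resveratrol mice, near those of all genes. Pancreatic acinar and islet genes and T and NK cell genes gave the same picture. Clock genes varied somewhat more, with median SDs of 0.12, 0.10 and 0.15 over the 15 of 20 measured, and 4 of 15 were above the 90th percentile of all genes. Per2 had a pooled SD of 0.05, and Arntl, the core clock activator, and Dbp, an output gene of opposite phase, had 0.09 and 0.28. Arntl and Dbp moved in opposite directions (r = -0.829, permutation p = 0.02, adjusted p = 0.0556; rho = -0.824, adjusted permutation p = 0.0344), and r was -0.818 without resveratrol mice 4 and 2. Sirt1 and Ppargc1a, named because resveratrol is often discussed with them, had pooled SDs of 0.08 and 0.09. Of the 33 lists with 5 or more genes measured, 30 had a median pooled SD above the 0.09 of all genes. Since the offset compresses the SDs of dim probes, a small SD of a list, of a gene or of all genes does not show a lack of spread.

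**Figure D5:**
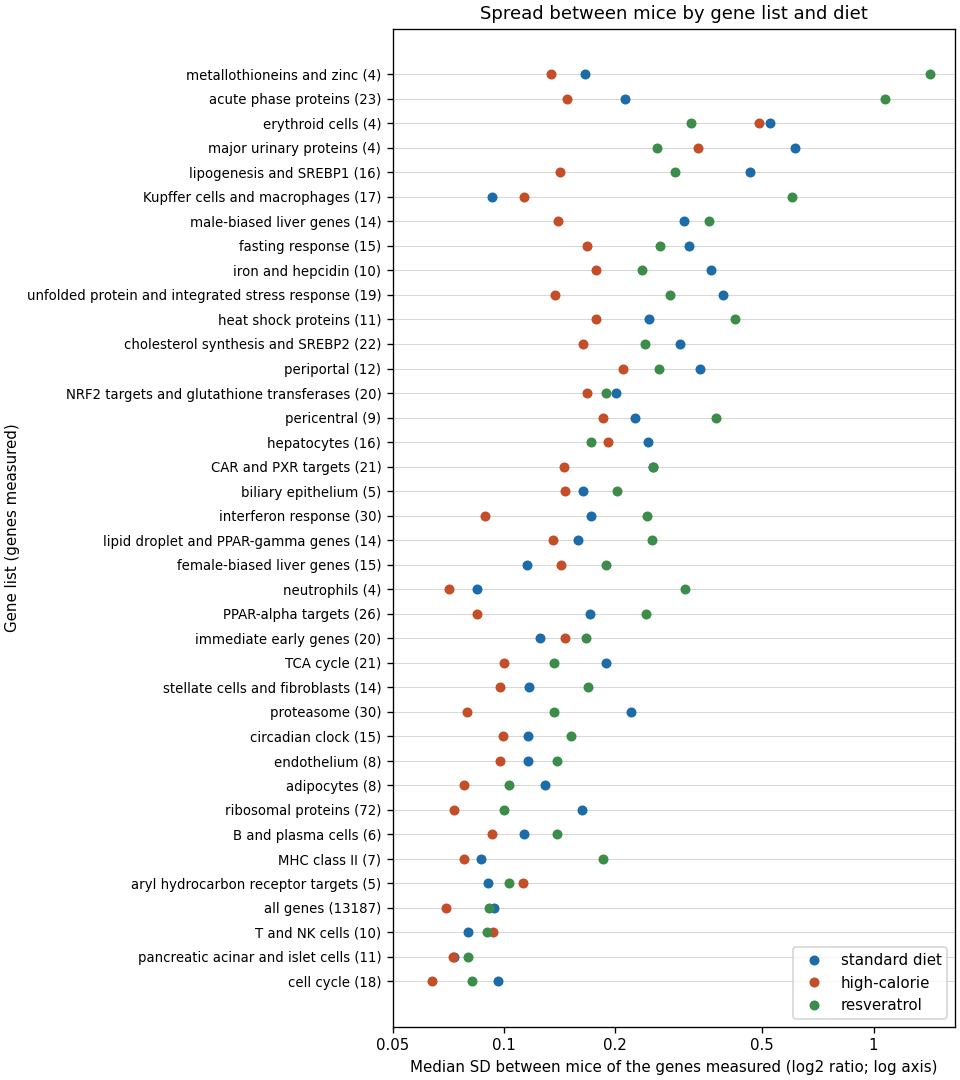
Median SD between mice (x axis, log2 ratio, log scale) of the genes measured in each list (rows, number measured in brackets), 1 point per diet. Metallothioneins, acute phase and Kupffer cell genes lie farthest right in resveratrol mice, and cell cycle genes lie near all genes. Acute phase and major urinary protein rows include saturated genes.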

How the data were processed

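Mouse liver RNA was measured on 14 Agilent 2-colour arrays, 1 per animal, with the animal in Cy3, the pool of 5 standard-diet livers in Cy5 and no dye swap, per the labels. Per the labels' protocols RNA was column-purified and linearly amplified, which may shift levels. The deposited scanner files hold spot mean and local background intensity in scanner units and processed intensity made by Feature Extraction, per the file headers. The authors' deposited value table holds scores scaled to a mean of 0 and an SD of 1 per array, and no label or header says by which steps.

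Spot intensities were corrected with normexp (offset 50) and loess within each array in limma 3.58.1 (R 4.3.3), with control spots at weight 0 in loess and outlier spots left out. Saturated spots were kept. Spots of a probe were averaged. Probes well above background in Cy3 on all 14 arrays were kept, 29160 of 41174, and 16175 of these matched a RefSeq symbol. A gene takes its brightest probe. Spread was compared with limma on the absolute deviation of each mouse from its diet mean, corrected for group size, over all 3 diets with Benjamini-Hochberg adjustment at 0.05, and the code was tested on simulated data. The animal and pool channels were compared by their deviations on each array. Gene pairs were tested by 100000 permutations within diets (numpy 2.4.6, scipy 1.17.1). The number of arrays limits the precision. With 1 array per animal, the p-values cannot tell differences between animals from those of amplification, labelling and slide.

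Named genes are, per diet, the 12 with the largest SD; per gene list up to 4 with the largest and 2 with the smallest pooled SD; per correlated group up to 8 and the 5 most like its lead gene; all genes of the tested pairs; the 10 with the smallest SD; and Alb, Actb, Gapdh, Sirt1, Ppargc1a and Igf1. Others are said to be chosen after their values were seen. Members, lists and pairs were chosen with earlier results of these data known. One group of correlated genes is not reported here. Replicate numbers did not pair the samples. Alternatives covered background, normalisation, channel, processing day, the measure of deviation, the deposited scores and each mouse left out.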

Additional observations from a re-analysis of the deposited data

Results flagged for a closer look

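Of the named genes in single diets, 14 had 1 mouse whose gap to the nearest other exceeded Dixon's critical value; 191 were examined. Chance gives about 1 in 20 groups, but this rate does not hold here, since most of these genes were chosen for a large SD over the same mice. Values are log2 animal/pool ratios. In standard-diet mouse 2 Cidea was at -1.98 (next mouse -3.13), Ccl6 at -1.30 (-0.98) and Oaz1 at -1.03 (0.73). In standard-diet mouse 1 Lrp6 was at 2.37, Dkk1 at 2.13 and Calcr at 1.92, with the next mouse at 0.17, 0.08 and 0.01. In high-calorie mouse 4 Itpr2 was at 3.72 (-0.01), Olig2 at 3.30 (0.27) and Bcl6 at 1.31 (-0.12). Other high-calorie mice that stood apart were mouse 2 for Jchain at 0.52 (-0.85) and mouse 3 for Oaz1 at 0.50 (0.90). In resveratrol mouse 3 Car3 was at -2.28 (0.71) and Oaz1 at 0.97 (0.67), and in resveratrol mouse 1 Hmgcs1 was at 0.32 (1.25). Saa3 and Mt2 did not meet this rule in resveratrol mice because mouse 4 also lay above mice 1 and 2.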

How the results depend on the processing

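Under the alternatives tried, 1301 of 1340 single-gene SDs moved by less than their jackknife error. That error is made from the same SDs without single mice that form many of the alternatives. The count is therefore largely fixed in advance and does not show that the SDs are stable. The counts of spread calls depended strongly on the setting. None of the 4 called pairs reversed its sign. Some results that did not pass did so, such as Hsd3b5 with Cyp2b9 (r = -0.483, and 0.365 without resveratrol mice 4 and 1). The order of the diets' median SDs also changed. The median SDs (standard diet, high-calorie, resveratrol) became 0.161, 0.101 and 0.133 with Agilent's processed signals, 0.133, 0.0925 and 0.117 with a normexp offset of 10, 0.125, 0.107 and 0.0976 with median centring, and 0.151, 0.176 and 0.139 with the Cy3 channel alone. Without single mice they ranged from 0.0801 to 0.092, 0.0623 to 0.0702 and 0.0748 to 0.0879.

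For high-calorie against standard-diet mice, 9 calls became 55 with processed signals, 25 with the offset of 10, 3 with median centring and 0 with Cy3 alone, the processing day as a block, squared deviations, the diet median or the deposited scores. For resveratrol against standard-diet mice, 28 became 13, 18, 3 and 4 in the first 4 of these settings, 57 with the day as a block, 5 with the diet median and 2 with the scores. For resveratrol against high-calorie mice, 41 became 23 with processed signals, 0 with median centring, 2 with Cy3 alone, 86 with the day as a block, 6 with the diet median and 2 with the scores. Without single mice the 3 counts ranged from 0 to 236, 14 to 278 and 17 to 344. The animal against pool count of 307 became 154 with processed signals, 520 with the offset of 10, 17 and 0 within the first and second processing day, and 26 to 545 without single mice. The 4 called pairs became 10 with processed signals, 7 with median centring and 2 to 9 without single mice. The cause of these changes was not tested. With saturated spots left out 6 pairs were called, of fewer pairs tested. The subtraction of a local surface, the leaving out of saturated spots and the within-day fits were chosen after seeing the data.

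With the replicate number as a block the 3 counts of spread calls were 0, 8 and 7. Same-numbered mice did not deviate together (r from -0.228 to 0.335), so the numbers do not pair the mice. Dim probes have SDs compressed by the offset, and levels near background limit what can be seen.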
